A study of Homo sapiens with 8 samples.

Results

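The 10 genes described here encode surface proteins and one lectin through which epithelial cells signal to leukocytes: CD274, PDCD1LG2, VTCN1, CD276, PVR, NECTIN2, LGALS9, CD47, ICAM1 and CD58. They were taken by gene name from a table of 58735 genes, and all 10 were among the 17413 genes with enough counts to be fitted. They were selected on the treated against control changes of their counts in these same 8 libraries, so those changes are given as a description and no test of the 10 genes is offered. Gene counts came from total RNA of SV-HUC1, an established line of human urothelial cells immortalised with SV40. The control group is 4 untreated SV-HUC1 cultures. The treated group is 4 SV-HUC1 cultures kept for 24 h in medium with glucose oxidase at 20 mU per ml, an enzyme that turns glucose and oxygen into hydrogen peroxide. All cultures are of this 1 line and were grown in basal medium with fetal bovine serum, and no group received inactive enzyme or peroxide alone. The culture labels name no leukocytes, so these are the ligands alone, without the cells that carry their receptors.

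Immune checkpoint ligands damp or redirect lymphocytes and macrophages. CD274 (PD-L1) and PDCD1LG2 (PD-L2) bind the receptor PD-1 on activated T cells, and VTCN1 (B7-H4) and CD276 (B7-H3) are further B7 family proteins that can restrain T cells. PVR (CD155) and NECTIN2 (CD112) are bound by the inhibitory receptor TIGIT and the activating receptor DNAM-1, LGALS9 encodes the secreted lectin galectin 9, and CD47 signals to macrophage SIRP alpha not to engulf the cell. ICAM1 and CD58 (LFA-3) hold leukocytes to the cell by binding LFA-1 and CD2. In many epithelial cells CD274 is known to follow interferon gamma through STAT and IRF factors, and ICAM1 to follow NF-kB as well.

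Controls had between 21653952 and 23543702 counts per library, and treated cultures between 21437267 and 27183692. Libraries of replicates 1 and 2 stood apart from those of replicates 3 and 4 in both groups, a division that the labels do not give. Of 12 urothelial markers, 10 were fitted, and their summed level was 5133 to 7094 CPM (counts scaled to library size) in controls and 3584 to 4243 CPM in treated cultures. Keratins carried most of that sum. Of the 4 uroplakin genes listed, UPK1B was at 54.1 to 186.8 CPM, UPK2 at 4.67 to 11.6 CPM, and UPK1A and UPK3A were under 0.2 CPM in each library. When edgeR was fitted with replicate number as block, 3 of the 10 markers fitted were lower (KRT8, KRT19 and KRT5), 6 had no call, and GATA3 was higher (48.9 ± 21.7 to 67.8 ± 23.2 CPM, log2 change 0.52, edgeR adjusted p = 0.0191), a call lost in a fit that distinguished only the pair of replicates 1 and 2 from the pair 3 and 4 (adjusted p = 0.0614), as was that of KRT8 (0.0998). The part of this lower marker sum in the results below was not tested, and in bulk RNA fewer cells of a kind and less RNA per cell cannot be told apart. Of 10 leukocyte markers 7 stayed below 1 CPM in every library, among them PTPRC (CD45), and TYROBP was at 0. The leukocyte sum, at 85.0 to 119.4 CPM for controls, was 104.7 to 177.3 CPM for treated cultures, most of it CD74, a chain that accompanies MHC class II and that epithelial cells can make. CD74 was the marker of this list that was higher (log2 change 0.49, edgeR adjusted p = 0.0213 with the block, 0.0698 when only the pairs of replicates were distinguished). The other 2 fitted had values of the opposite sign. CSF1R fell, with means of 4.37 ± 0.619 and 2.34 ± 0.301 CPM, a log2 change of -0.90 and an edgeR adjusted p of 0.00883, with all treated cultures below all controls, and CD14 had a log2 change of -0.42 with no call (edgeR adjusted p = 0.234). The fibroblast sum was 16.3 to 26.1 CPM in controls and 14.4 to 26.2 CPM in treated cultures, with 5 of 6 markers below 1 CPM, and the endothelial sum reached 6.05 CPM at most.

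ICAM1, LGALS9, CD274, PVR and PDCD1LG2 were higher after glucose oxidase, and VTCN1 was lower by a factor of 9.07. ICAM1 more than doubled (2.25-fold) and CD274 rose 1.60-fold, while CD276 and NECTIN2 stayed within 1.15-fold of the controls and CD47 and CD58 were at 0.757 and 0.762 of the control mean. For genes outside the 10, "rose" and "fell" mean a Benjamini-Hochberg adjusted p below 0.05 in the edgeR quasi-likelihood fit with replicate number as block. For the 10 genes these words, and a call or no call, describe the values and are no test. In that fit 5 of the 10 genes were higher (7.51% of all genes fitted were) and 1 was lower (6.97% were), and nothing is read from these counts, since the contrast chose the genes. Scaling by total counts gave the same 5 and 1 with the block (9.62% of all genes higher, 3.07% lower). With no block, 0 of the 10 and 0 of 17413 genes passed, 1284 genes had an unadjusted p below 0.05, and DESeq2 without a block called VTCN1 alone of the 10 (0.361% of its genes). When the fit distinguished only the pair of replicates 1 and 2 from the other pair, ICAM1, LGALS9, CD274 and PVR were higher (3.72% of all genes were), VTCN1 was lower (3.07% were) and PDCD1LG2 had no call, against 6.79% called in either direction.

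**Figure D1:**
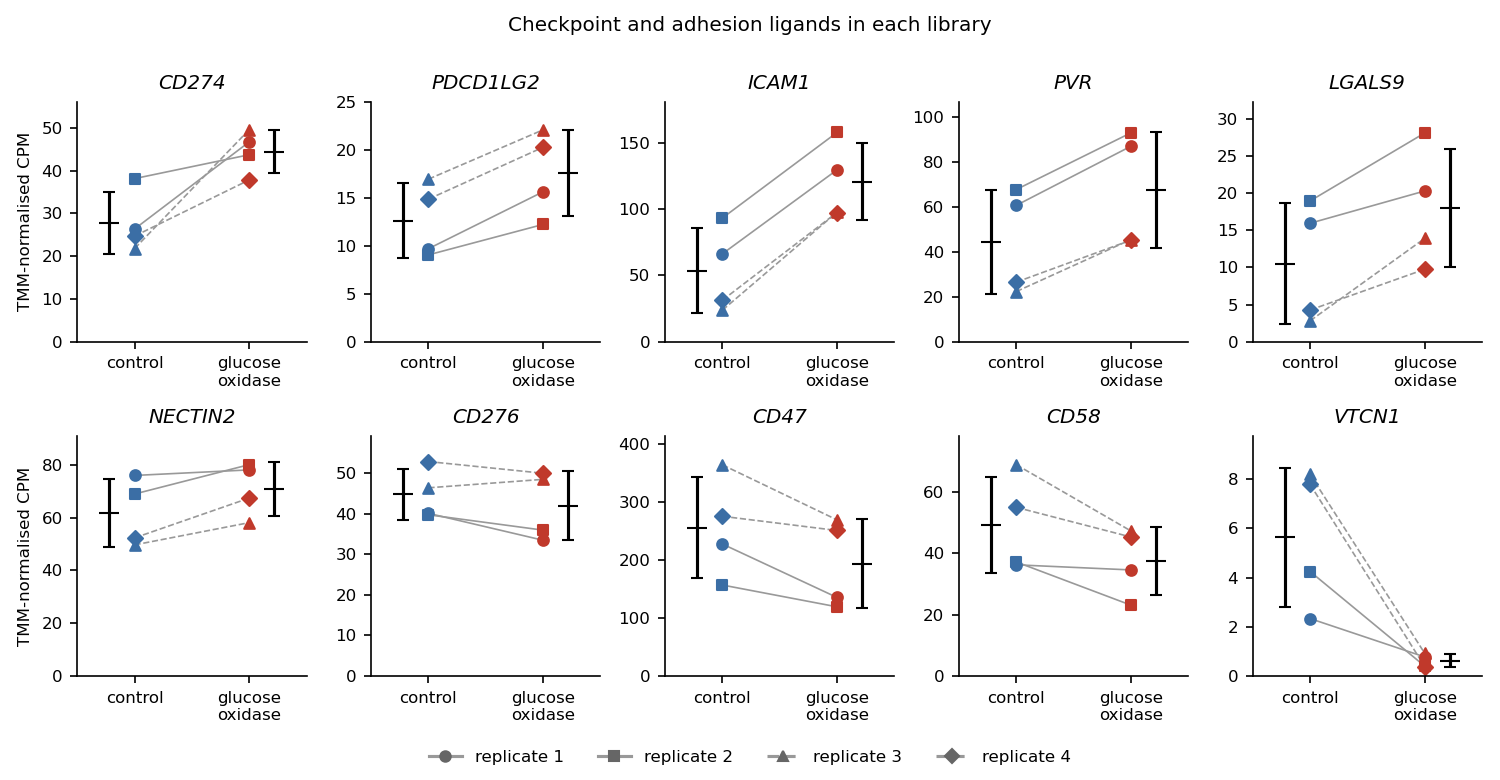
Level of each of the 10 genes in TMM-normalised CPM (vertical axis, from 0) in control and glucose oxidase cultures. Marker shapes give the replicate number, lines join libraries of equal number (dashed for replicates 3 and 4), and the black bars are the mean ± SD of 4 libraries. ICAM1 and VTCN1 are the genes whose groups do not overlap.

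The change by replicate number shows how far the 4 cultures of a group differed in direction. Treated was above control in all 4 pairs for CD274, PDCD1LG2, PVR, NECTIN2, LGALS9 and ICAM1 (6 genes, against 16.9% of all genes fitted) and below it in all 4 for VTCN1, CD47 and CD58 (3 genes, against 17.1%). CD276 was below its control in pairs 1, 2 and 4 and above it in pair 3. The groups of 4 did not overlap for 2 of the 10 genes, ICAM1 and VTCN1 (5.02% of all genes fitted). ICAM1 lay wholly above its controls, as 2.42% of all genes did, and VTCN1 wholly below, as 2.6% did. For the other 8 genes the groups overlapped.

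**Figure D2:**
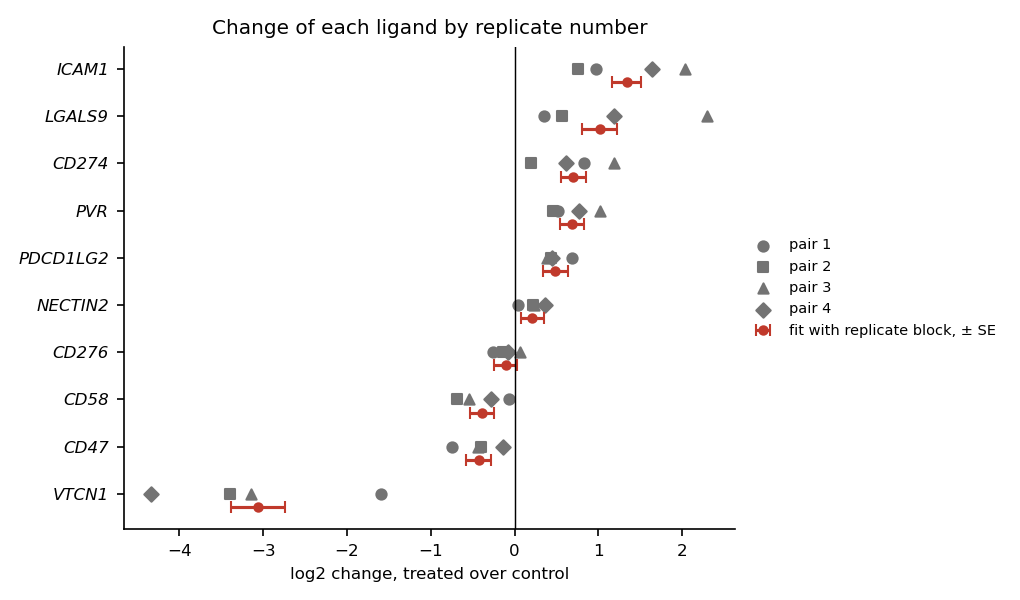
log2 change of each gene, treated over control (horizontal axis), for libraries of equal replicate number (grey shapes) and from the edgeR fit with the replicate block (red points, bars are ± SE). VTCN1 lies apart at -3.07, and ICAM1 has the largest increase at 1.34.

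The ligands of PD-1 are neighbours on the short arm of chromosome 9. CD274 (ENSG00000120217) lies at 5450503 to 5470566 and PDCD1LG2 (ENSG00000197646) at 5510570 to 5571254 on the plus strand of GRCh38, with a gap of 40003 bases and 0 protein-coding genes between them. CD274 was at 26.4, 38.1, 21.8 and 24.7 CPM in controls 1 to 4 and at 46.7, 43.7, 49.6 and 37.8 CPM in treated cultures 1 to 4. Only treated culture 4, at 37.8 CPM, lay below the highest control, and the other treated cultures lay above every control. The means were 27.8 ± 7.18 and 44.5 ± 5.03 CPM (SD, n = 4 throughout), a log2 change of 0.70 (SE 0.15). Treated over control ratios were 1.77, 1.15, 2.27 and 1.53 in pairs 1 to 4. The smallest step was in pair 2, whose control was the highest. The treated cultures were closer to each other than the controls were, with a coefficient of variation of 11.3% against 25.9%.

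The 300 bases around the RefSeq start of CD274 (GRCh38.p14, plus strand, chr9:5450292-5450591) are shown because they hold letters of the interferon response, and the capitals mark matches to GAAA, any 2 bases and GAAA (bound by IRF factors) and TTCNNNGAA (bound by STAT factors).
CD274: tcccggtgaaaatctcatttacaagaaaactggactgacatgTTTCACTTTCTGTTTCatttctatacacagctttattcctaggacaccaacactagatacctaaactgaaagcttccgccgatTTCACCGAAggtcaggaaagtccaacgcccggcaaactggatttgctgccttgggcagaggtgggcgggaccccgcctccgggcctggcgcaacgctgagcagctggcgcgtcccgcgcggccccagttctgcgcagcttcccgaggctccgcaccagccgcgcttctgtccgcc
The IRF letters occur in 2 overlapping matches on the opposite strand, beginning 208 and 202 bases before the start, and the STAT letters once, 125 bases before it. On either strand, the IRF letters are in 3.57% of the 35116 RefSeq promoter windows of this length and the STAT letters in 7.66%. A match of letters is a description and does not show that a factor was bound in these cells.

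PDCD1LG2 rose 1.39-fold. It was at 9.73, 9.08, 17.0 and 14.9 CPM in controls 1 to 4 and at 15.7, 12.3, 22.1 and 20.3 CPM in treated cultures 1 to 4. Each treated culture was above the control of its number, but treated cultures 1 and 2 lay below control 3, so the groups overlapped. The log2 change was 0.49 (SE 0.15), and the pair ratios ran from 1.30 to 1.61. Leaving out any 1 replicate number ended the call. Unlike CD274, PDCD1LG2 was higher in controls 3 and 4 than in controls 1 and 2 (1.70-fold between the means), where CD274 was lower (0.721-fold). Per gene length, in the deposited FPKM, CD274 was 1.56 and 2.42 times PDCD1LG2 in controls 1 and 2 but 0.739 and 0.955 times in controls 3 and 4. In treated cultures 1 to 4 that ratio was 1.72, 2.05, 1.29 and 1.07, so CD274 was the higher of the 2 in each treated culture.

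VTCN1 went the other way from CD274, although both are B7 family ligands that restrain T cells. VTCN1 (ENSG00000134258, chromosome 1, 117143587 to 117210960, minus strand) had 54, 108, 148 and 162 counts in controls 1 to 4 and 23, 10, 22 and 10 in treated cultures 1 to 4. That is 2.33, 4.25, 8.19 and 7.79 CPM against 0.775, 0.402, 0.924 and 0.386 CPM. Every treated culture was below every control. The means were 5.64 ± 2.83 and 0.622 ± 0.270 CPM, with a log2 change of -3.07 (SE 0.33), which was the lowest of all 17413 genes fitted. The controls were 3.01, 10.6, 8.86 and 20.2 times the treated cultures of the same number. The smallest step, in pair 1, started from the lowest control. The minimum used to keep genes, 0.425 CPM, applies to CPM before TMM normalisation, and on that scale 4 controls and 3 treated cultures reached it, so VTCN1 entered the fit through its controls. In the authors' deposited table, which compares these same libraries, VTCN1 had a log2 fold change of -3.19 and the second smallest p-value. It was the only 1 of the 10 genes with an adjusted p below 0.05 there (0.403% of the genes with a deposited adjusted p below 1 were).

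The window around the RefSeq start of VTCN1 (GRCh38.p14, minus strand, chr1:117210878-117211177) is shown because this gene had the largest decrease, and the capitals mark the letters TGANTCA, which AP-1 factors bind.
VTCN1: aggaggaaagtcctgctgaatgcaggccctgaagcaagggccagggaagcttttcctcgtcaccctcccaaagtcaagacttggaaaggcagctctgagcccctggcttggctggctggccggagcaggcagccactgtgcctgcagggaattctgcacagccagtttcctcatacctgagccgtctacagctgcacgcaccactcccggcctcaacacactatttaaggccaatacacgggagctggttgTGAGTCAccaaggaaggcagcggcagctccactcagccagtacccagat
The match lies just after the start of transcription, and these letters are in 7.71% of all windows. The CD274 window holds no such match, and the VTCN1 window none to the IRF or STAT letters.

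CD276, a further B7 family ligand, did not move with the others. It was at 40.1, 39.7, 46.4 and 52.8 CPM in controls 1 to 4 and at 33.4, 35.9, 48.4 and 49.9 CPM in treated cultures 1 to 4. The groups overlapped and the treated culture was below its control in 3 of 4 pairs, at 0.835 of it in pair 1. Its log2 change was -0.11 (SE 0.14), and scaling by total counts turned it to 0.00, so no direction is given for this gene.

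The nectin family ligands of TIGIT and DNAM-1 lie on chromosome 19, PVR (ENSG00000073008) at 44643798 to 44663583 and NECTIN2 (ENSG00000130202) at 44846175 to 44889228, 183 kb and 4 protein-coding genes apart. PVR was at 60.6, 67.6, 22.3 and 26.5 CPM in controls 1 to 4 and at 86.8, 92.8, 45.4 and 45.1 CPM in treated cultures 1 to 4. Treated cultures 3 and 4 were below controls 1 and 2, yet each treated culture was above the control of its number. The pair ratios were 1.43, 1.37, 2.03 and 1.70, and the log2 change was 0.69 (SE 0.14). NECTIN2 was at 76.0, 69.0, 49.7 and 52.3 CPM in controls 1 to 4 and at 78.1, 80.1, 58.1 and 67.4 CPM in treated cultures 1 to 4. It was above its control in each pair, but by ratios of 1.03 to 1.29, and its log2 change of 0.21 (SE 0.14) had no call. PVR shares 121 exon bases with its neighbour CEACAM19, which had 19 to 134 counts against 403 to 2575 for PVR. Both ligand genes were higher in replicates 1 and 2 than in 3 and 4. That ratio was 2.63 for PVR and 1.42 for NECTIN2 between the control means.

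LGALS9 had the highest coefficient of variation of the 10 genes, 77.5% in controls and 44.4% in treated cultures. The gene for galectin 9 (ENSG00000168961, chromosome 17, 27629798 to 27649560) was at 15.9, 18.9, 2.82 and 4.28 CPM in controls 1 to 4 and at 20.3, 28.1, 13.9 and 9.76 CPM in treated cultures 1 to 4. Controls 1 and 2 were 4.92 times controls 3 and 4, and treated cultures 3 and 4 stayed below both of the higher controls. The ratio was 1.27 and 1.48 in pairs 1 and 2 and 4.93 and 2.28 in pairs 3 and 4. Its log2 change was 1.01 (SE 0.21) with the block and 0.77 (SE 0.56) without it. The count is uncertain where reads match the near-identical copies LGALS9B and LGALS9C. These had at most 13 counts in any library, against 51 to 699 for LGALS9. Such counts do not show how many reads matched more than 1 copy. LGALS9 also shares 294 exon bases on the same strand with AC015688.4, which had 0 counts in every library.

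CD47, the signal against engulfment, had the highest mean level per gene length (FPKM) of the 10 genes in controls. CD47 (ENSG00000196776, chromosome 3, 108043094 to 108091862) was at 227.6, 156.9, 364.1 and 275.4 CPM in controls 1 to 4 and at 135.5, 119.3, 269.2 and 250.9 CPM in treated cultures 1 to 4. Each treated culture was below the control of its number, with ratios of 0.595, 0.760, 0.739 and 0.911. The groups overlapped, and the log2 change of -0.43 (SE 0.15) had no call in edgeR with the block, while DESeq2 with the block called it lower. Replicates 3 and 4 were higher than 1 and 2, by 1.66 times between control means and 2.04 times between treated means.

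ICAM1 had the largest increase of the 10 genes, and it was the 80th highest log2 change of all genes fitted. This immunoglobulin superfamily protein (ENSG00000090339, chromosome 19, 10270835 to 10286615, plus strand) lets leukocytes carrying LFA-1 or Mac-1 adhere. It was at 66.3, 93.2, 23.8 and 31.3 CPM in controls 1 to 4 and at 129.5, 157.7, 97.6 and 97.4 CPM in treated cultures 1 to 4. Every treated culture was above every control, though treated culture 4 exceeded control 2 by a small margin. The means were 53.6 ± 32.2 and 120.6 ± 29.01 CPM, with a log2 change of 1.34 (SE 0.17). The ratio was 1.95 and 1.69 in pairs 1 and 2 and 4.10 and 3.11 in pairs 3 and 4, whose controls were the lowest. The mean of controls 1 and 2 was 2.90 times that of controls 3 and 4, while treated cultures 1 and 2 were 1.47 times treated cultures 3 and 4. Antisense genes share 815 and 61 bases with the exons of ICAM1 but had at most 14 and 4 counts, and reads of a gene and its antisense partner cannot be told apart unless the counting used strand, which the sources used here do not give.

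The window around the RefSeq start of ICAM1 (GRCh38.p14, plus strand, chr19:10270870-10271169) is shown because ICAM1 had the largest increase, and the capitals mark GGAANTTCC, a palindromic form of the NF-kB site, and the STAT letters TTCNNNGAA.
ICAM1: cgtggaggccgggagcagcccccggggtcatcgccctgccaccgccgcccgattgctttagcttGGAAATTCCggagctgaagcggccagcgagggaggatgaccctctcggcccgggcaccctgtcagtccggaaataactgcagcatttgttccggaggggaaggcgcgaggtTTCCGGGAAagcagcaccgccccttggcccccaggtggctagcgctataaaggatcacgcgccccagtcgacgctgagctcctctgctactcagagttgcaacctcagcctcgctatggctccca
The NF-kB palindrome begins 186 bases before the start and the STAT letters 75 bases before it. The palindrome is in 0.965% of all windows, on either strand, and was added to the search after this sequence had been read. The longer NF-kB consensus, in 5.91% of all windows, had no match in any of the 10 windows of the 9 genes that RefSeq's table held. PDCD1LG2 was not among those 9.

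Among these 9 genes, the IRF letters were also found once in LGALS9, and TGACNNNGC, the core of the NRF2 site, once each in NECTIN2 and CD47 (13.3% of all windows). The letters TGATGNAA, part of the ATF4 composite site (3.62% of all windows), were in none of the windows. PVR, CD58 and both windows of CD276 held none of the motifs searched. No match says only that these letters are not in these 300 bases.

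CD58, the ligand of CD2 on T and NK cells, had values opposite in sign to ICAM1. CD58 (ENSG00000116815, chromosome 1, 116514535 to 116571039) was at 36.2, 37.1, 68.8 and 54.9 CPM in controls 1 to 4 and at 34.5, 23.1, 47.2 and 45.2 CPM in treated cultures 1 to 4. Each treated culture was below the control of its number, with ratios of 0.954, 0.621, 0.687 and 0.824, but the groups overlapped. The log2 change of -0.39 (SE 0.14) had no call. VTCN1 lies 573 kb from CD58 on the same chromosome, with 6 protein-coding genes between them.

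CD274 and ICAM1 differed less between the 2 sets of replicates after glucose oxidase than before it. The ratio of replicates 1 and 2 to replicates 3 and 4 went from 1.39 in controls to 1.04 in treated cultures for CD274 and from 2.90 to 1.47 for ICAM1. For CD274 the control ratio rests largely on control 2 (38.1 CPM), since control 1 was at 26.4 CPM and controls 3 and 4 at 21.8 and 24.7 CPM. For LGALS9 it went from 4.92 to 2.05 and for PVR from 2.63 to 1.98. Controls 3 and 4 were 2.43 times controls 1 and 2 for VTCN1, and in treated cultures the ratio was 1.11. The mean log2 change in pairs 1 and 2 against pairs 3 and 4 was 0.51 and 0.90 for CD274, 0.86 and 1.84 for ICAM1, 0.46 and 1.75 for LGALS9, 0.49 and 0.90 for PVR and -2.50 and -3.74 for VTCN1. By these means the 5 genes moved further in replicates 3 and 4, whereas PDCD1LG2 (0.56 and 0.41), CD47 (-0.57 and -0.28) and CD58 (-0.38 and -0.41) did not move clearly further there. Of the 5 genes, ICAM1, LGALS9 and PVR moved further pair by pair as well. NECTIN2, which had no call, did so too by small steps (0.04 and 0.216 in pairs 1 and 2, 0.226 and 0.365 in pairs 3 and 4). CD274 had a log2 change of 0.83 in pair 1 and 0.61 in pair 4, and VTCN1 one of -3.40 in pair 2 and -3.15 in pair 3. The sets were found from expression values, so no test of this difference is given.

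Levels of different genes can be set side by side only per gene length, for which the deposited FPKM (fragments per length of gene, scaled for depth by the authors' size factors) were used. In controls the order ran CD47 (30.9 ± 11.3 FPKM), CD58 (27.4 ± 9.41), NECTIN2 (16.2 ± 3.01), ICAM1 (14.1 ± 8.17), PVR (12.3 ± 6.17), CD276 (7.98 ± 1.26), CD274 (6.64 ± 1.54), PDCD1LG2 (5.32 ± 1.76), VTCN1 (1.85 ± 0.965) and LGALS9 (1.79 ± 1.36). Neighbours in this order overlapped over their 4 libraries, except that PDCD1LG2 lay above VTCN1 and CD58 marginally above NECTIN2. The lowest CD58 value (19.79 FPKM) and the highest NECTIN2 value (19.78 FPKM), both in control 1, were almost equal. In treated cultures ICAM1 was first at 31.9 ± 7.13 FPKM, ahead of CD47 at 23.3 ± 9.56 and CD58 at 20.8 ± 6.43, with which it overlapped in part of its range. CD274 came to 10.7 ± 1.27 FPKM and lay above all treated values of CD276 (7.46 ± 1.59), whereas in controls the CD274 and CD276 ranges overlapped. VTCN1 was last at 0.203 ± 0.0904 FPKM, below every value of LGALS9 (3.09 ± 1.32). Among all genes fitted, the mean FPKM of VTCN1 stood at the 38.1 percentile in controls and the 6.89 percentile in treated cultures, and that of ICAM1 at 79.0 and 91.2.

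**Figure D3:**
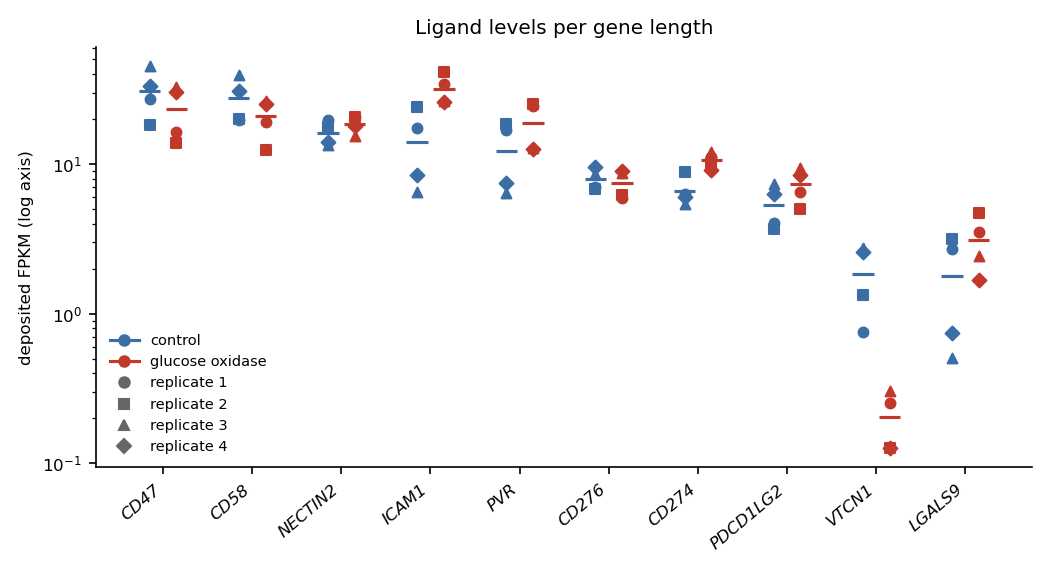
Deposited FPKM of each gene (vertical log axis) in control (blue) and glucose oxidase cultures (red), in the order of the control means. Each shape is 1 library of the replicate given, and short lines are group means. ICAM1 goes from the fourth place in controls to the first in treated cultures, and VTCN1 to the last.

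The other genes through which epithelial cells meet lymphocytes were taken from lists of related genes, which do not include the 10. Of 27 other checkpoint ligands and costimulators 18 were fitted, of which 1 rose, 5 fell and 12 had no call. Of all genes fitted, 7.51% were higher and 6.97% lower. The median log2 change of the list was -0.17, against -0.01 for all genes fitted. CEACAM1, a ligand of TIM-3 and of itself, rose from 2.45 ± 1.81 to 5.998 ± 2.36 CPM (log2 change 1.39, SE 0.27, edgeR adjusted p = 0.00138 with the block, higher in 4 of 4 pairs). CD70, the ligand of CD27 on T cells, fell from 34.6 ± 18.2 to 18.0 ± 12.6 CPM (log2 change -1.09, SE 0.16, edgeR adjusted p = 0.000106, lower in 4 of 4 pairs). IDO1, a tryptophan-degrading enzyme that starves T cells and is a known interferon gamma target, fell from 220.2 ± 113.6 to 133.4 ± 73.6 CPM (log2 change -0.75, SE 0.15, edgeR adjusted p = 0.00138). The other 3 that fell were LGALS1, TNFSF9 and NECTIN3, named here after their values were seen. Scaling by total counts ended the calls of TNFSF9 and NECTIN3, and DESeq2 with the block did not call NECTIN3. CD80 and CD86, the ligands of CD28 and CTLA-4, had too few counts to be fitted.

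The calls among other adhesion molecules and NK cell ligands are given beside the 14.5% of all genes fitted that had a call in either direction. Of 23 other leukocyte adhesion molecules 15 were fitted, of which 0 rose, 1 fell and 14 had no call (median log2 change -0.19). DESeq2 with the block called 2 of them lower, CXADR and, named after its values were seen, ALCAM. The one that fell in edgeR was CXADR, a junction protein that binds JAML on leukocytes (19.5 ± 8.83 to 11.1 ± 3.77 CPM, log2 change -0.76, SE 0.15, edgeR adjusted p = 0.00159). ICAM5, a relative of ICAM1 named after its values were seen, had a mean of 40.5 CPM before and 41.6 CPM after glucose oxidase (log2 change 0.07, edgeR adjusted p = 0.799), VCAM1 was at 1.04 CPM or less, and ICAM4 had 0 counts. Of 11 ligands of activating NK cell receptors all were fitted and 1 rose (median log2 change 0.14), ULBP1, which binds NKG2D (11.4 ± 11.4 to 19.2 ± 11.96 CPM, log2 change 1.21, SE 0.23, edgeR adjusted p = 0.00121). ULBP1 was at 17.5 and 24.3 CPM in controls 1 and 2 and at 1.55 and 2.16 CPM in controls 3 and 4, the same order as LGALS9.

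Of 18 counter-receptors of these ligands on leukocytes 4 were fitted, and CD2, CD28, CTLA4, ICOS and TIGIT had 0 counts in all 8 libraries. The other 9 that were not fitted had at most 17 counts in any library. Of those fitted, SIRPA, the receptor of CD47 and also named after its values were seen, had a mean of 25.5 CPM before and 33.8 CPM after glucose oxidase (log2 change 0.38, edgeR adjusted p = 0.105). ITGB2, the shared chain of LFA-1 and Mac-1, named after its values were seen, had means of 9.29 and 8.90 CPM (log2 change -0.05, edgeR adjusted p = 0.876), and ITGAM, the other chain of Mac-1, was below 1 CPM in each library. CD226, which encodes DNAM-1, fell from 0.547 ± 0.0955 to 0.173 ± 0.0912 CPM (log2 change -1.66, SE 0.57, edgeR adjusted p = 0.0470). It was the only 1 of the 4 fitted with a call, where 6.97% of all genes fitted were lower. The call came at 11 to 13 counts per control and 1 to 6 per treated culture, so CD226 entered the fit through its controls. It was absent (edgeR adjusted p = 0.0629) when only the pairs of replicates were distinguished. Total counts with the block (edgeR adjusted p = 0.078) and DESeq2 with the block gave no call either. Leaving out any 1 replicate number also ended it (edgeR adjusted p from 0.0698 to 0.189), so nothing is read from this call.

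**Figure D4:**
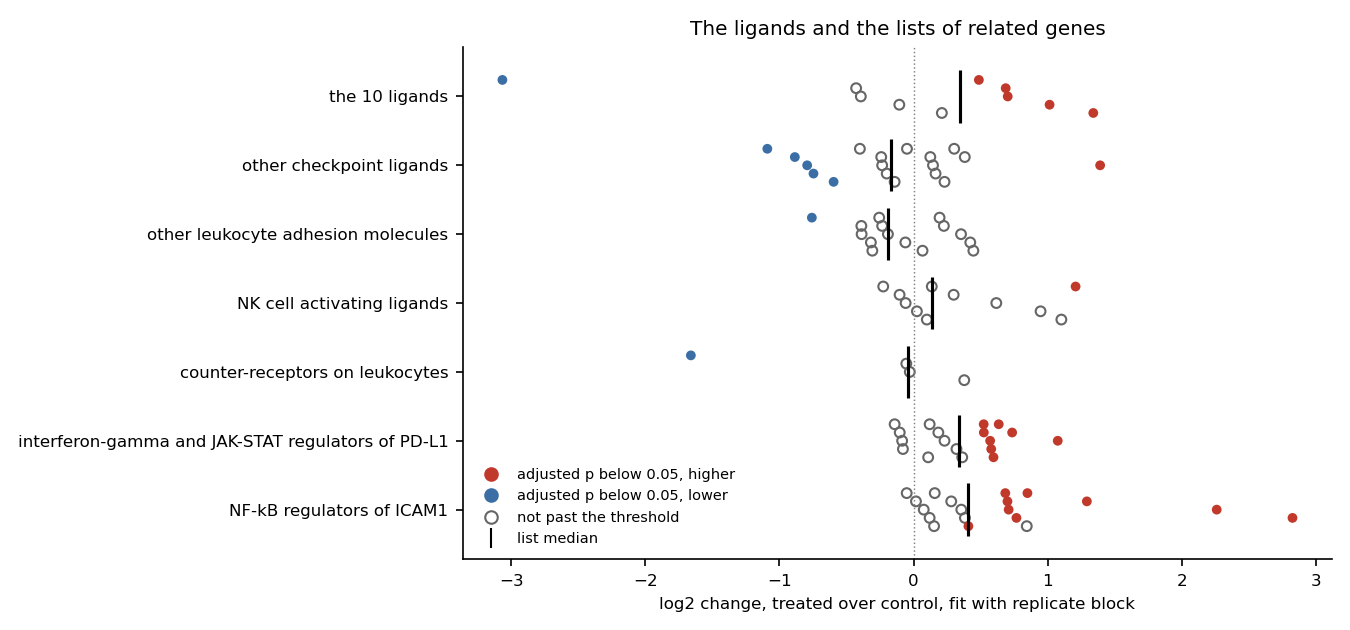
log2 change in the edgeR fit with the replicate block (horizontal axis) of the 10 ligands and of the fitted genes of 6 lists of related genes. Filled points had an adjusted p below 0.05 (red higher, blue lower), open points did not, and black bars are list medians. In the last 2 lists all filled points are higher.

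Regulators known for CD274 and ICAM1 formed the last 2 lists, which were chosen with earlier results of these libraries known and are given as counts with no test. Of 18 genes of the interferon gamma and JAK-STAT route and other regulators of PD-L1, all were fitted, 8 rose, 0 fell and 10 had no call, with a median log2 change of 0.34, where 7.51% of all genes fitted were higher. SOCS3, a feedback inhibitor of JAK kinases, rose from 7.10 ± 1.27 to 11.8 ± 1.75 CPM (log2 change 0.74, SE 0.17, edgeR adjusted p = 0.00531), and all treated cultures lay above all controls. MYC, a transcription factor, rose from 71.1 ± 45.2 to 133.1 ± 30.7 CPM (log2 change 1.08, SE 0.17, edgeR adjusted p = 0.000194). Of 2 further genes named after their values were seen, IRF1, a factor of the interferon gamma route, had no call (log2 change 0.19, edgeR adjusted p = 0.429). The other, CMTM6, which stabilises PD-L1 protein, was at 145.1 and 132.1 CPM (log2 change -0.08, edgeR adjusted p = 0.780). Of 19 NF-kB genes and inducers, inhibitors of NF-kB among them, all were fitted, 9 rose, 0 fell and 10 had no call. Their median log2 change was 0.41, against -0.01 for all genes fitted, of which 7.51% were higher and 6.97% lower. IL1B, which induces ICAM1 in epithelial cells, rose from 1.62 ± 0.516 to 8.04 ± 3.03 CPM (log2 change 2.26, SE 0.24, edgeR adjusted p = 9.52e-07), and IL1A rose by a log2 change of 2.83 (SE 0.42, edgeR adjusted p = 9.72e-05), with controls 3 and 4 at 5.31 and 5.91 CPM and controls 1 and 2 at 44.4 and 61.1 CPM. When only the pairs of replicates were distinguished, 5 of the PD-L1 regulators and 8 of the NF-kB genes were higher, as were 3.72% of all genes fitted.

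The 5 protein-coding genes of at least 5 CPM whose log2 CPM followed CD274 most closely over the 8 libraries, among 10872 compared, were PIGL (Pearson r = 0.972), NOV (0.964), SPRY2 (0.955), SEMA3A (0.952) and ZC3H12A (0.952). ZC3H12A, the RNase regnase-1 that degrades cytokine messages, had 28.8 ± 6.05 CPM before and 45.5 ± 2.94 CPM after glucose oxidase. Those closest to ICAM1 were C3 (0.988), PIK3AP1 (0.987), SLC8B1 (0.982), SEMA7A (0.980) and MYC (0.980). C3, the central complement protein, was at 49.3, 65.7, 27 and 37.2 CPM in controls 1 to 4 and at 78.4, 92.6, 72.5 and 63.9 CPM in treated cultures 1 to 4. SEMA7A, a membrane-anchored semaphorin, was at 53.8 ± 24.2 and 88.7 ± 16.1 CPM. These libraries share the division by treatment and by replicates, so the correlations describe a shared order of the 8 values.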

How the data were processed

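Gene counts were measured in 8 SV-HUC1 libraries, 4 control and 4 treated. Tools listed in the submitters' processing notes are DESeq2 1.20.0, featureCounts 1.5.0-p3 and HISAT2 2.0.5, with GRCh38.p13 as build. Use of strand in counting: not given in the sources used here. Counts were deposited raw, as whole numbers for each gene. The deposited FPKM are per gene length and scaled by the authors' size factors, as tested on the values. The authors' deposited comparison table gives a size-factor-normalised signal per library and group, a log2 fold change, a p-value and an adjusted p-value. The log2 fold change and p-values of the 10 genes were taken from it. The p-values of all its genes served for the rank of VTCN1, and the adjusted p-values for the share of genes below 0.05.

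Counts were fitted with edgeR 4.0.16 under R 4.3.3 (TMM, filterByExpr, quasi-likelihood test, Benjamini-Hochberg adjustment over 17413 genes, threshold 0.05). The planned fit had the group as its only term. The replicate number was added as a block because libraries of equal number deviated together: the 4 same-number correlations of deviations from the group mean of log2 CPM were 0.532, 0.678, 0.590 and 0.503, each above the minimum of 0.1. Libraries of replicates 1 and 2, and of 3 and 4, also correlated across numbers (0.443 to 0.652). That range overlaps the same-number values, so the correlations do not tell pairs of equal number from the division into sets. No label says that equal numbers mark a shared experiment. Calls found only with the block, such as that of PDCD1LG2, rest on this choice. CPM are TMM-normalised; the SE is the absolute log2 change over the root of the F statistic. No label says that the cultures were independent beyond their replicate numbers and the design text, so p-values concern only these libraries. With the block they measure the spread left after the level of each replicate number is removed. Without a block they measure the spread between libraries of a group. No 2 libraries of a group agreed within sampling noise. DESeq2 1.42.0, total counts, no filter and leaving out libraries were alternatives, and the scripts were tested on simulated data. The members and lists were chosen with earlier results of these data known. Named genes were the 10 members, up to 2 called genes per direction of smallest adjusted p in each list, the 5 genes closest in pattern to CD274 and ICAM1, while LGALS1, TNFSF9, NECTIN3, CD80, CD86, ICAM4, ICAM5, VCAM1, SIRPA, ITGB2, ITGAM, UPK1A, UPK1B, UPK2, UPK3A, KRT8, CD14, ALCAM, IRF1 and CMTM6 were chosen after their values were seen. Promoter windows of 300 bases are RefSeq's, on GRCh38.p14, and were searched on both strands.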

Additional observations from a re-analysis of the deposited data

How the results depend on the processing

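Counts of calls depended on the replicate number. Over the whole table the fit with no block called 0 genes, and 0 again under total counts and without any 1 library. The replicate block gave 2521 (1308 higher, 1213 lower), DESeq2 with the block 2506, total counts with the block 2210, no filter with the block 2293, and a fit distinguishing only the pair of replicates 1 and 2 from the other pair 1182. DESeq2 without the block gave 74 and edgeR with no filter and no block 34. With the block and 1 replicate number left out the count was 1100 (without replicate 3) to 1886 (without replicate 4), with 1502 without replicate 2 and 1634 without replicate 1. In the 6 lists of related genes, 0 of 85 fitted genes passed without a block, 26 with the replicate block (19 higher, 7 lower), 25 with DESeq2 and the block, 25 under total counts with the block, 24 with no filter and the block, 20 when only those pairs were distinguished, 2 (IL1A and IL1B) with no filter and no block and 1 (IL1B) in DESeq2 without the block. Leaving out 1 replicate number with the block gave 16 (without replicate 3), 21 (without replicate 1) or 22. Under total counts the median log2 change over the table went from -0.01 to 0.10 with the block, and the share of calls that were higher from 51.9% to 75.8%, and in the 6 lists from 73.1% to 84.0%.

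Over 20 alternatives the log2 change of CD274 ran from 0.55 to 0.89, of ICAM1 from 0.93 to 1.57, of PVR from 0.39 to 0.88, of LGALS9 from 0.47 to 1.29 and of VTCN1 from -3.56 to -2.69. These 5 genes kept their call in all 8 fits with the block. The same contrast chose the genes and the fits share their libraries, so this describes the settings and adds no separate support. Without a block VTCN1 passed in 2 of 11 alternatives, DESeq2 and edgeR with no filter, and the other 9 genes in none. CD276 turned to 0.003 under total counts, 0.004 under total counts with the replicate block and ran from -0.191 to 0.01 when 1 library was left out, with the last value without treated replicate 1. The cause of these differences was not tested.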
